A study of Mus musculus with 9 samples.

Results

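Genes of canonical Wnt signaling, 10 in number, were followed in the mouse face while the upper lip and the primary palate closed. They were the 4 nuclear effectors Lef1, Tcf7, Tcf7l1 and Tcf7l2, the 3 secreted R-spondins Rspo1, Rspo2 and Rspo3, the R-spondin receptor Lgr5, and the feedback inhibitors Axin2 and Nkd1. The genes were taken by symbol from the deposited expression table, and all 10 were found among its 54532 genes and passed the filter on low counts in every comparison. The table covered lambdoidal junction tissue, where the maxillary, lateral nasal and medial nasal prominences meet, from C57BL/6J mouse embryos of 3 ages, embryonic day 10.5 (E10.5), day 11.5 (E11.5) and day 12.5 (E12.5). No transgene, mutation or treatment was involved. Each stage had 3 replicate libraries, and each library was made from dissected tissue pooled over embryos, so the spread between libraries is a spread between pools. Stages were compared over the first interval (E11.5 vs. E10.5), over the second interval (E12.5 vs. E11.5) and over the whole span (E12.5 vs. E10.5). These 3 comparisons share libraries and are not independent of one another.

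Canonical Wnt signaling works by keeping beta-catenin from being degraded. Stabilised beta-catenin enters the nucleus and binds TCF/LEF proteins, which sit on DNA through an HMG box and hold target genes repressed until beta-catenin arrives. R-spondins bind Lgr receptors and slow the removal of Wnt receptors from the cell surface, so they raise the response to a given amount of Wnt, while Axin2 and Nkd1 are induced by the pathway and dampen it. In the face, Wnt signaling is known to act in both the surface epithelium and the neural crest-derived mesenchyme of the prominences.

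Library depth was 16959676 to 17756251 counts in the E10.5 libraries, 18280441 to 20836804 in those of E11.5 and 16581009 to 17919664 in those of E12.5. The 10 genes had between 48 and 5376 counts in a library. Levels within a gene are given as counts scaled to effective library size (CPM), and a gene "rose" or "fell" where its adjusted p in edgeR's quasi-likelihood test was at most 0.05 over all genes tested in that comparison. It was called a differentially expressed gene (DEG) where, in addition, the log2 fold change was at least 1 in either direction. E10.5 replicate 3 stood apart from the other libraries of its stage. Its difference from the other E10.5 replicates ran with GC content across genes (Spearman's rho = -0.55, a description across genes within 1 library), and it held the lowest level of 7 of the 10 genes at that stage, all except Lef1, Rspo3 and Tcf7l2. Calls of the 10 genes that turn on this library are given with and without it. The E12.5 libraries were also spread. Chi-square per degree of freedom between replicate pairs was 25.2, 27.9 and 54.3 at E12.5. It was 57.0 and 61.6 for the pairs with E10.5 replicate 3.

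Of the 10 genes, 6 rose in the first interval and none fell, where 6.19% of all 15708 genes tested rose and 5.58% fell. Tcf7 alone was lower at an unadjusted p under 0.05 in edgeR, and DESeq2 also called none lower. In the second interval 5 rose and 1 fell, beside 7.61% and 4.57% of 15808 genes. Over the whole span 5 rose and 1 fell, beside 14% and 10.5% of 15899 genes. DEGs, all of them higher at the later stage, numbered 4 of 10 in the first interval (3.46% of all genes were such), 1 of 10 in the second (4.14%) and 4 of 10 over the whole span (9.97%). Every library of the later stage lay above every library of the earlier one for 6 of the 10 genes in the first interval (18.3% of all genes) and below for 1 (18.3%). These counts were 5 (18.5%) and 2 (16.8%) in the second interval, and 6 (22%) and 1 (20.4%) over the whole span. The median log2 fold change of the 10 genes was 0.91, 0.27 and 0.59 in these comparisons, against -0.03, 0.02 and -0.01 for all genes tested. Lef1, Nkd1 and Rspo3 rose in all 3 comparisons, and Tcf7l1 changed in none. The second-interval calls of Lef1 and Nkd1 were lost in a fit on all 9 libraries. Since the tissue was sequenced in bulk, a change in the number of cells that express a gene and a change in its RNA per cell cannot be told apart here.

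**Figure D1:**
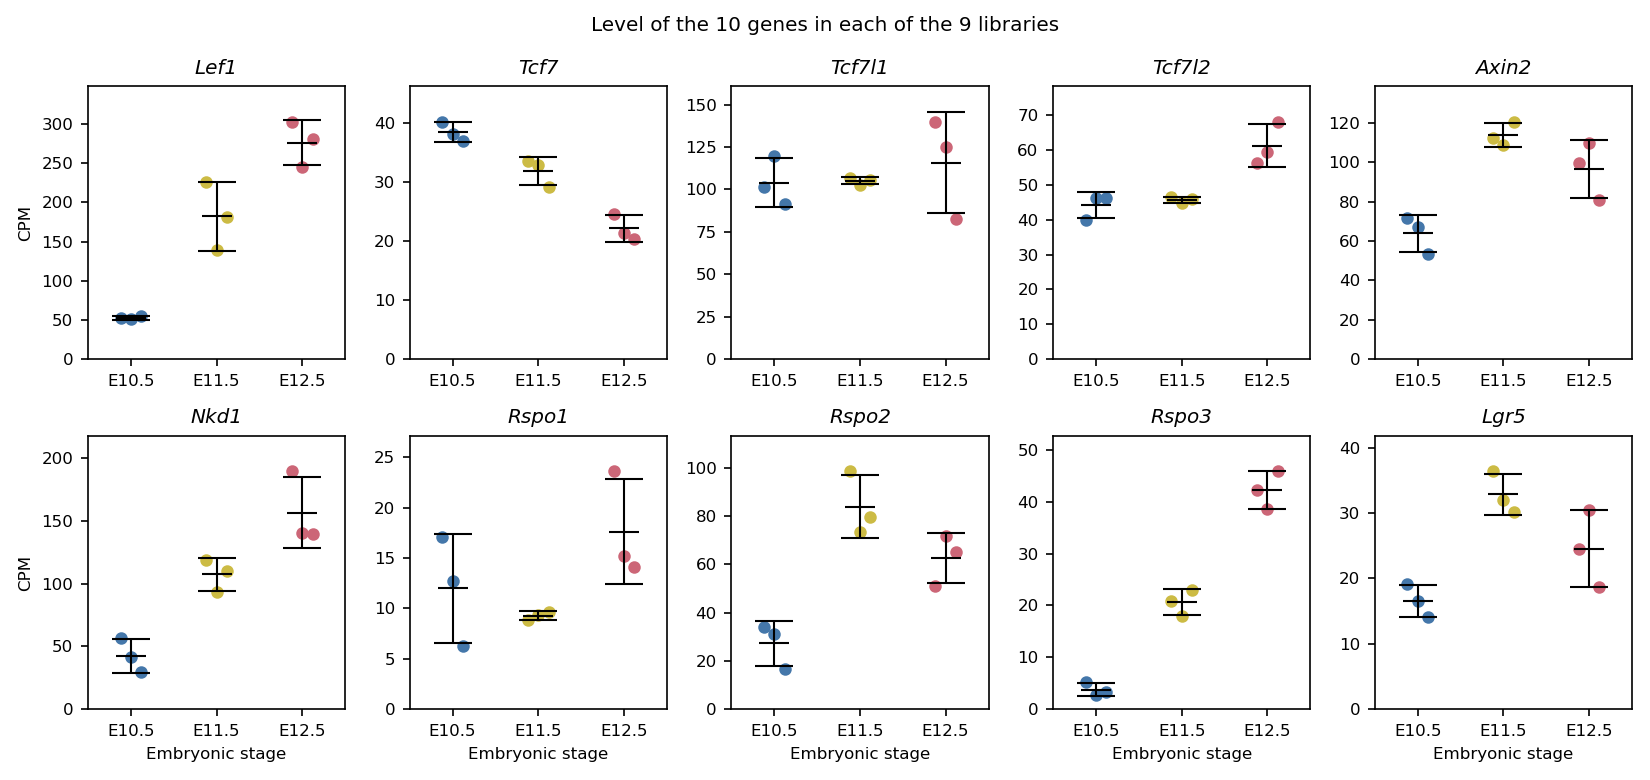
Level of each gene in CPM (vertical axis, from 0, its scale differing between panels) at each embryonic stage from E10.5 to E12.5 (horizontal axis). Points are the 9 libraries and black bars the mean ± SD (n = 3 per stage). Lef1 runs from 50.9 to 55.5 CPM at E10.5 and from 246 to 303 at E12.5, the mean of Tcf7 is lower at each stage than at the one before, and Axin2, Rspo2 and Lgr5 have their highest mean at E11.5.

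Among the nuclear effectors, Lef1 rose steeply while Tcf7 fell. Lef1 (ENSMUSG00000027985, GRCm38 chr3:131110471-131224356, plus strand) encodes a TCF/LEF factor best known as an activator and a mark of active Wnt signaling. Its level was 52.4, 50.9 and 55.5 CPM in the E10.5 libraries, 227, 139 and 181 at E11.5, and 303, 246 and 280.2 in the E12.5 libraries. The libraries of each stage lay wholly above those of the stage before, although the E11.5 libraries were widely spread. Lef1 rose 3.45-fold in the first interval (log2 fold change 1.79, SE 0.18, adjusted p = 0.00153) and 5.25-fold over the whole span (2.39, SE 0.18, adjusted p = 7.11e-06). The second step was 0.60 (SE 0.17, adjusted p = 0.0452) and depended on the libraries used. It was lost without E11.5 replicate 2 (0.42, adjusted p = 0.208) or 3, and likewise without E12.5 replicate 1 or 3 (adjusted p from 0.0655 to 0.173). The second step also just missed in the fit on all 9 libraries (0.60, adjusted p = 0.0530) and with DESeq2 size factors in edgeR (0.58, adjusted p = 0.05002). Of 15 alternative fits, 9 passed.

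Tcf7 (ENSMUSG00000000782, chr11:52252371-52283014, minus strand), which encodes TCF1, moved the other way. It measured 40.2, 38.1 and 37.0 CPM at E10.5, 33.6, 32.8 and 29.2 at E11.5, and 24.6, 21.4 and 20.4 in the E12.5 libraries. Each stage lay wholly below the one before it. Tcf7 fell in the second interval (log2 fold change -0.53, SE 0.13, adjusted p = 0.0271) and over the whole span (-0.79, SE 0.18, adjusted p = 0.00831). The first step, -0.27, did not pass (adjusted p = 0.161), though it did without E10.5 replicate 3 (-0.29, adjusted p = 0.0221). The second step did not pass when any 1 of the E11.5 libraries was left out (adjusted p from 0.0641 to 0.113).

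Tcf7l1 (ENSMUSG00000055799, chr6:72626378-72789254, minus strand) encodes TCF3, known mainly as a repressor of Wnt targets. It measured 101, 119.6 and 91.5 CPM at E10.5, between 103 and 107 at E11.5, and 140.0, 125 and 82.4 in the E12.5 libraries, where E12.5 replicate 3 was the lowest of the 9 libraries. The 3 stages overlapped. Its 95% intervals on the log2 scale were -0.25 to 0.29 for the first interval, -0.25 to 0.51 for the second, and -0.31 to 0.64 for the whole span, so a doubling lay outside each of them.

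Tcf7l2 (ENSMUSG00000024985, chr19:55741810-55933654, plus strand) encodes TCF4, the main partner of beta-catenin in the intestine. Its levels were 40.0, 46.3 and 46.2 CPM at E10.5, between 44.7 and 46.5 at E11.5, and 56.2, 59.4 and 68.1 in the E12.5 libraries. All E12.5 libraries lay above all earlier ones. Tcf7l2 rose in the second interval by a log2 value of 0.42 (SE 0.12, adjusted p = 0.0489), and its value of 0.48 over the whole span missed the threshold (adjusted p = 0.0626, and 0.0383 without E10.5 replicate 3). The call in the second interval was lost without any 1 of the E11.5 libraries or without E12.5 replicate 1 or 3 (adjusted p from 0.0706 to 0.206). It was also lost in the fit on all 9 libraries (0.42, adjusted p = 0.0757), and 5 of 15 alternative fits passed.

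The 4 effectors are close relatives, and reads from their most conserved stretch, the coding sequence of the HMG box, can be assigned only by the bases that differ. The following 60 coding bases from GENCODE vM21 transcripts (GRCm38) show how few those are. Capitals mark the 16 positions at which the 4 genes are not all identical. Positions are counted from the first base of the start codon: 1019 to 1078 in Lef1, 692 to 751 in Tcf7, 1199 to 1258 in Tcf7l1 and 1109 to 1168 in Tcf7l2.
Lef1: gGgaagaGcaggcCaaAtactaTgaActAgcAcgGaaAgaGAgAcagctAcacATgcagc
Tcf7: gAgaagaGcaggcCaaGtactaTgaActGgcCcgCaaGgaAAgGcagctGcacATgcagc
Tcf7l1: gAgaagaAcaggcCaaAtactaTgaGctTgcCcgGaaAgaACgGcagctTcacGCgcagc
Tcf7l2: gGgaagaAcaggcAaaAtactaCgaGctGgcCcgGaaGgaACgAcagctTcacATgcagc
Of these 60 bases, Tcf7 shared 51 with Lef1, Tcf7l1 shared 49 and Tcf7l2 shared 50. The longest exactly shared run between the coding sequences of any pair of the 4 genes was 14 to 23 bases, and between the 3 R-spondins 10 to 14 bases.

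Levels of different genes were compared on the deposited FPKM values, which are divided by gene length. That length is the union of all exons of a gene, and the order of some genes depended on it, so it is also given with the longest coding transcript as length, a choice made after seeing the data. At E10.5 the leading effector was Tcf7l1, at 26.3 ± 3.68 FPKM (SD, n = 3 here and for the values that follow), above Tcf7 at 14.5 ± 0.54, and Lef1 stood at 5.96 ± 0.27, its range overlapping those of Rspo1 and Rspo2. At E12.5 Nkd1 (33.8 ± 5.89), Lef1 (30.9 ± 3.06) and Tcf7l1 (29.0 ± 7.34) headed the order with overlapping libraries, and Tcf7 had dropped to 8.30 ± 0.77. Lgr5 was last at E11.5 (3.17 ± 0.31) and E12.5 (2.35 ± 0.56), and Rspo3 (1.2 ± 0.39) overlapped it at the bottom at E10.5. With the coding transcript as length, Tcf7l1 still led at E10.5 (33.9 ± 4.75), but Lef1 (15.0 ± 0.68) overlapped Tcf7 (15.4 ± 0.57) there. Lef1 then lay above all the others at E11.5 (51.8 ± 12.5) and E12.5 (78.1 ± 7.73), with Nkd1 (37.8 ± 6.58) and Tcf7l1 (37.4 ± 9.46) next at E12.5. Lgr5 was then last at E12.5 alone (5.13 ± 1.23). Rspo3 lay below it at E10.5, and Rspo1 (5.01 ± 0.24) was lowest at E11.5.

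The ratio of Lef1 to Tcf7 FPKM was higher at each later stage, in every library. It was 0.39, 0.40 and 0.45 in the E10.5 libraries, 2.01, 1.26 and 1.86 at E11.5, and 3.67, 3.43 and 4.10 in the E12.5 libraries. With the coding transcript as length it was 0.92, 0.95 and 1.07, then up to 4.78 at E11.5, then 8.73, 8.15 and 9.75, so whether it started below 1 depended on the length. Within the summed FPKM of the 4 effectors, the share of Lef1 was 11.6% ± 1.28 at E10.5, 31.7% ± 4.92 a day later and 41.4% ± 4.71 in the E12.5 libraries. The share of Tcf7 was 28.1% ± 1.97, 18.8% ± 1.92 and 11.1% ± 0.25. Tcf7l1 made up 50.6% ± 3.42, 41.4% ± 2.90 and 38.2% ± 6.57, and Tcf7l2 between 8.10% and 9.70% on average. The Lef1 and Tcf7 shares did not overlap between any pair of stages. The shares were not tested. The deposited length of Lef1 is 8788 bases, whereas its longest coding transcript has 3482. With the coding transcript as length for all 4 genes, the Lef1 share became 19.8%, 46.2% and 55.6%.

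**Figure D2:**
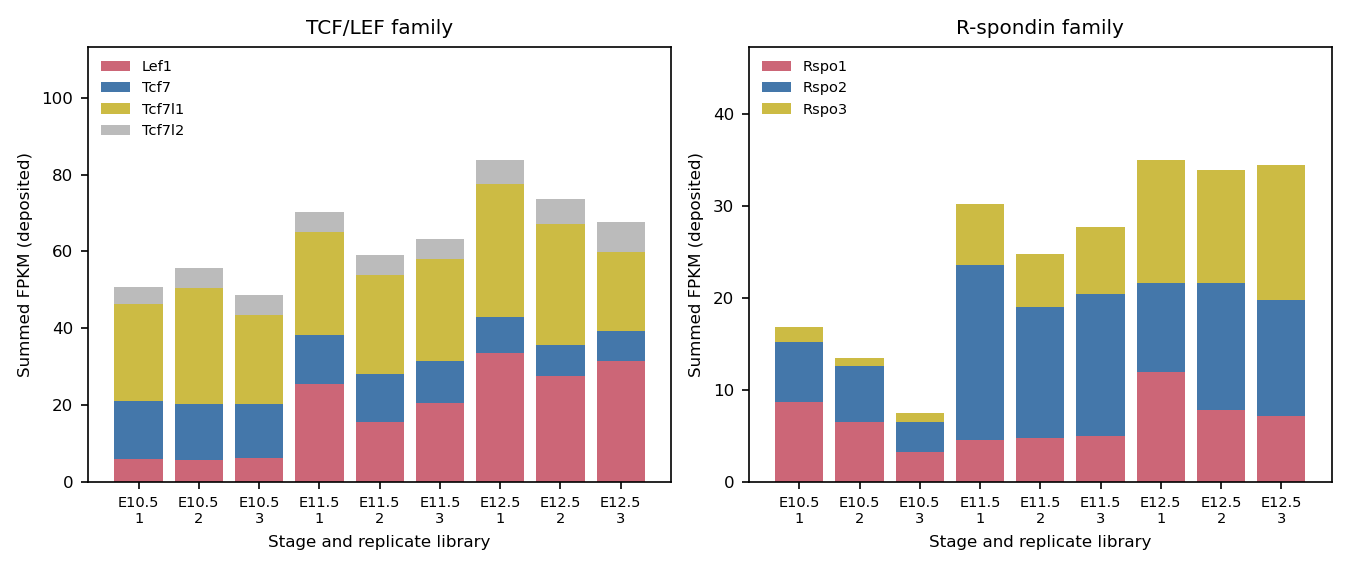
Summed deposited FPKM of the 4 TCF/LEF genes (left) and the 3 R-spondins (right) in each of the 9 libraries, stacked by gene. In the TCF/LEF panel the Lef1 block (bottom, 11.6% of the sum on average at E10.5 and 41.4% at E12.5) grows while the Tcf7 block shrinks, and in the R-spondin panel the summed height climbs from a mean of 12.6 to 34.5 FPKM. The E10.5 heights in that panel run from 7.52 (replicate 3) to 16.8.

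The 3 R-spondins are described in turn, and their courses were not tested against one another. Rspo3 (ENSMUSG00000019880, chr10:29452416-29535867, minus strand), which encodes a secreted Wnt amplifier, had the largest log2 fold change of the 10 genes in all 3 comparisons with all libraries in the fit. Its level was 5.17, 2.79 and 3.34 CPM at E10.5, 20.8, 18.0 and 23.0 at E11.5, and 42.3, 38.6 and 45.9 in the E12.5 libraries. The stages did not overlap. Rspo3 rose 5.48-fold in the first interval (log2 fold change 2.45, SE 0.24, adjusted p = 0.00153) and 11.3-fold over the whole span (3.49, SE 0.26, adjusted p = 7.21e-06). It was the only DEG of the 10 in the second interval, at 1.03 (SE 0.14, adjusted p = 0.00114). That value sat on the fold threshold: leaving out E11.5 replicate 2 gave 0.92 and leaving out E12.5 replicate 3 gave 0.96, with the adjusted p still passing in both. In the fit without E12.5 replicate 3, Rspo1 had a larger value (1.04) than Rspo3.

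Rspo2 (ENSMUSG00000051920, chr15:43020794-43170826, minus strand), needed for limb and craniofacial growth in mice, rose in the first interval and not in the second. It measured 33.9, 31.1 and 16.7 CPM at E10.5, 98.4, 73.4 and 79.6 at E11.5, and 51.1, 71.5 and 65.1 in the E12.5 libraries. All E11.5 libraries lay above those of both other stages. Rspo2 rose 3.08-fold in the first interval (log2 fold change 1.62, SE 0.25, adjusted p = 0.00697) and 2.31-fold over the whole span (1.21, SE 0.26, adjusted p = 0.00677). Without E10.5 replicate 3 the latter was 0.96 and no longer a DEG, with an adjusted p of 0.00385. The value of -0.43 in the second interval did not pass (adjusted p = 0.104), but it did without E12.5 replicate 2 (adjusted p = 0.0235).

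Rspo1 (ENSMUSG00000028871, chr4:124986430-125009099, plus strand), known for its part in ovary development, had its only call in the second interval. In edgeR's test over the 3 stages together it did not pass (adjusted p = 0.0845). Its levels were 17.1, 12.7 and 6.26 CPM at E10.5, 8.82, 9.33 and 9.69 at E11.5, and 23.6, 15.2 and 14.1 in the E12.5 libraries. The E10.5 libraries spanned a range that took in all of E11.5, with E10.5 replicate 3 below it and the other two above. Rspo1 rose 1.89-fold in the second interval (log2 fold change 0.92, SE 0.20, adjusted p = 0.0143). That call was lost without any 1 of the E11.5 libraries or without E12.5 replicate 1 (adjusted p from 0.0518 to 0.0656). It was also lost in the fit on all 9 libraries (0.93, adjusted p = 0.0899). Without E12.5 replicate 2 or 3 Rspo1 became a DEG, at 1.01 and 1.04. In the first interval the value was -0.37 with a 95% interval of -1.10 to 0.37, and it passed as lower without E10.5 replicate 3 (-0.67, adjusted p = 0.00363). The whole span gave 0.56 (adjusted p = 0.255).

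The summed FPKM of the 3 R-spondins was 12.6 ± 4.70 at E10.5, 27.6 ± 2.73 a day later and 34.5 ± 0.57 in the E12.5 libraries. The E10.5 mean leaned on replicate 3, which had the lowest sum of that stage, 7.52, where the highest was 16.8. All E11.5 libraries lay above these, from 24.8 FPKM. Rspo1, Rspo2 and Rspo3 each had a share of this summed FPKM. Rspo1 made up 47.5% ± 4.51 of it at E10.5, 17.3% ± 2.21 a day later and 25.9% ± 7.06 in the E12.5 libraries, whereas Rspo3 went from 10.2% ± 3.83 through 24.0% ± 2.33 to 39.0% ± 3.21. Rspo2 held 42.3% ± 3.14 at E10.5, its range overlapping that of Rspo1, and the largest share, 58.7% ± 3.89, at E11.5. Which of Rspo1 and Rspo2 had the higher mean at E10.5 depended on the length. With the coding transcript as length it was Rspo2 (8.07 ± 2.71 FPKM) over Rspo1 (6.47 ± 2.90 FPKM), again with overlapping ranges. The FPKM ratio of Rspo3 to Rspo2 was 0.25, 0.15 and 0.33 at E10.5, between 0.35 and 0.48 at E11.5, and 1.37, 0.89 and 1.17 in the E12.5 libraries. At E12.5 the ranges of Rspo3 and Rspo2 overlapped. With the coding transcript as length the E12.5 ratios were 0.90, 0.58 and 0.76, and Rspo2 (18.5 ± 3.18 FPKM) lay wholly above Rspo3 (13.5 ± 1.18 FPKM).

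Lgr5 (ENSMUSG00000020140, chr10:115450311-115587780, minus strand) encodes a receptor for R-spondins and is a Wnt target that marks stem cells in the gut and hair follicle. It measured 19.1, 16.5 and 14.1 CPM at E10.5, 36.4, 32.1 and 30.1 at E11.5, and 24.5, 30.5 and 18.7 in the E12.5 libraries. E11.5 lay wholly above E10.5, and E12.5 overlapped both. Lgr5 rose in the first interval by a log2 value of 0.99 (SE 0.15, adjusted p = 0.00649), just short of the fold threshold for a DEG (0.89 to 1.10 over the alternatives). Its later values, -0.42 in the second interval (adjusted p = 0.137) and 0.58 over the whole span (adjusted p = 0.0889), did not pass. Without E12.5 replicate 2 the former passed as lower (adjusted p = 0.0106).

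The feedback inhibitors both rose in the first interval. Axin2 (ENSMUSG00000000142, chr11:108920349-108950783, plus strand), a scaffold of the beta-catenin destruction complex that the pathway itself induces, measured 71.6, 66.9 and 53.2 CPM at E10.5, 112, 109 and 121 at E11.5, and 99.7, 109.7 and 80.8 in the E12.5 libraries. Both later stages lay above E10.5 and overlapped each other. Axin2 rose 1.78-fold in the first interval (log2 fold change 0.84, SE 0.13, adjusted p = 0.00678) and 1.52-fold over the whole span (0.61, SE 0.19, adjusted p = 0.0378). The latter call remained in 1 of 6 fits that left out a library, the one without E12.5 replicate 3, and was lost without each other library (adjusted p from 0.0534 to 0.128). In the second interval the value was -0.24 (adjusted p = 0.261), and -0.35 without E12.5 replicate 2 (adjusted p = 0.0484).

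Nkd1 (ENSMUSG00000031661, chr8:88521354-88594884, plus strand), which binds Dishevelled and restrains the response to Wnt, rose in both intervals. It measured 56.8, 41.3 and 29.7 CPM at E10.5, 119, 93.4 and 110.2 at E11.5, and 189.6, 141 and 140.0 at E12.5. Each stage lay wholly above the one before. Nkd1 rose 2.53-fold in the first interval (log2 fold change 1.34, SE 0.22, adjusted p = 0.00893) and 3.70-fold over the whole span (1.89, SE 0.25, adjusted p = 0.000317). The first was lost without E11.5 replicate 1 (1.26, adjusted p = 0.0596). In the second interval it rose by 0.54 (SE 0.15, adjusted p = 0.0409). That call was lost without any 1 of the E11.5 libraries or without E12.5 replicate 1 (adjusted p from 0.0842 to 0.205). It was also lost in the fit on all 9 libraries (0.54, adjusted p = 0.144) and with the GC trend removed (0.50, adjusted p = 0.0502). Of 15 alternative fits, 9 passed.

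**Figure D3:**
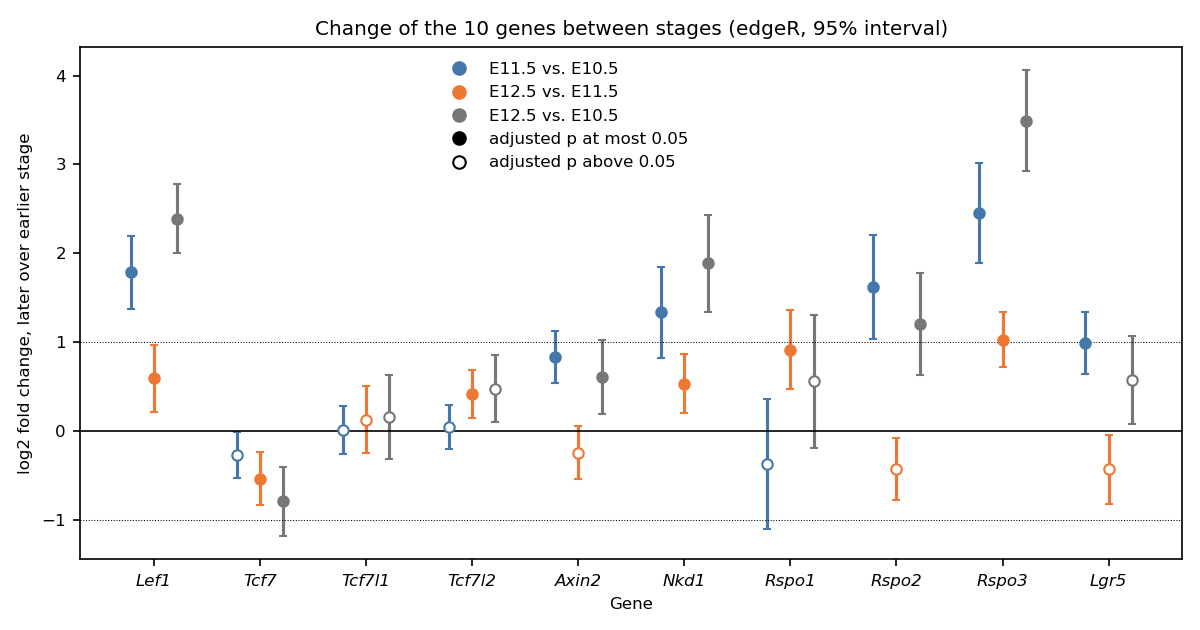
Log2 fold change of each gene, later over earlier stage, with its 95% interval from edgeR, in the first interval (E11.5 vs. E10.5, blue), the second interval (E12.5 vs. E11.5, orange) and the whole span (E12.5 vs. E10.5, grey). Filled points have an adjusted p of at most 0.05 and dotted lines mark log2 values of 1 and -1. Rspo3 reaches 3.49 and Lef1 2.39 over the whole span, Tcf7 lies below 0 in all 3 comparisons, and the intervals of Tcf7l1 take in 0.

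Whether the second day differed from the first was tested in a fit on all 9 libraries, as the log2 change from E11.5 to E12.5 minus that from E10.5 to E11.5. Of the 10 genes, 1 passed, with a lower second step, beside 1.18% of 16375 genes tested in either direction and 0.623% in that direction. This was Rspo2, at -2.04 (SE 0.39, 95% interval -2.89 to -1.2, adjusted p = 0.0303). Its call held in 4 of 9 fits with a library left out and was lost without any 1 of the E11.5 libraries or E12.5 replicate 1 or 3 (adjusted p from 0.0633 to 0.222). Lgr5 (-1.41, adjusted p = 0.0600), Rspo3 (-1.42, adjusted p = 0.0736), Lef1 (-1.18, adjusted p = 0.0754) and Axin2 (-1.07, adjusted p = 0.0782) had lower second steps that missed the threshold. Without E10.5 replicate 3, 6 of the 10 passed, these 4 with Rspo2 and, in the other direction, Rspo1 (1.56, adjusted p = 0.0465). The share of all genes that passed in that fit is not given here. The 1.18% above belongs to the fit on all 9 libraries and is not its background. Over the 3 stages together, 8 of the 10 differed (28.3% of all genes), the exceptions being Tcf7l1 (adjusted p = 0.748) and Rspo1 (adjusted p = 0.0845).

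Among other Wnt genes, the lists closest to the feedback inhibitors and the ligands held most of the changes. Of all genes tested, 6.19% rose and 5.58% fell in the first interval, 7.61% and 4.57% in the second, and 14% and 10.5% over the whole span. The counts of every list below stand beside these shares, and no list was tested as a set. Of 12 further feedback and target genes, 6 rose and 2 fell in the first interval, 2 rose and 2 fell in the second interval, and 8 rose and 1 fell over the whole span. Apcdd1, a membrane inhibitor of Wnt, rose by a log2 value of 2.24 in the first interval (SE 0.17, adjusted p = 0.00100), and Dkk1, a secreted blocker of the coreceptors, by 2.16 (SE 0.20, adjusted p = 0.0013). Nkd2, the paralogue of Nkd1, rose by 0.86 in the second interval (adjusted p = 0.00238). Ccnd1, which encodes cyclin D1, and Myc, both classed as Wnt targets and general growth genes, fell in the first interval by log2 values of -0.56 and -0.75 (adjusted p = 0.0127 and 0.0145). Msx2, a homeobox gene, fell by a log2 value of -0.59 in the second interval (adjusted p = 0.0112).

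Of 7 genes for R-spondin receptors and receptor turnover, none fell, with none lower by DESeq2 or at an unadjusted p under 0.05 either. Beside 6.19%, 7.61% and 14% of all genes, the last near the share in this list, 1 of the 7 rose in each comparison. It was Lgr6 each time, an Lgr5 relative that measured 2.97, 3.02 and 3.22 CPM at E10.5, 8.18, 5.67 and 7.06 a day later, and 21.2, 23.9 and 18.1 in the E12.5 libraries (log2 fold change over the whole span 2.79, SE 0.23, adjusted p = 1.38e-05). Among the 6 that did not pass was Lgr4, the broadly expressed member of the receptor family, whose log2 fold change over the whole span was -0.27 (adjusted p = 0.407). None of 14 genes for the destruction complex and transducers, such as beta-catenin itself (Ctnnb1, 0.15, adjusted p = 0.574), passed in any comparison by edgeR's test. At an unadjusted p under 0.05, 1 was lower in the first interval, 3 were lower and 1 higher in the second, and 3 were lower over the whole span, and DESeq2 called 1 lower in each. Their median log2 fold change was 0.03, -0.19 and -0.12 in the 3 comparisons.

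Of 17 nuclear partners of beta-catenin and TCF, 2 rose in the first interval, 1 fell in the second interval, and 5 rose and 1 fell over the whole span. Pygo1, a coactivator that works with beta-catenin, rose by a log2 value of 0.99 in the first comparison (adjusted p = 0.00276). Aes, a short Groucho-family protein, rose by 0.51 (adjusted p = 0.0372). Ctbp2, a corepressor, fell by a log2 value of -0.47 in the second interval (adjusted p = 0.0363).

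Of 19 Wnt ligands, 4 of 15 tested rose and 1 fell in the first interval, 7 of 16 rose in the second interval, and 11 of 16 rose over the whole span. Wnt5a, a ligand mostly of noncanonical signaling, rose by a log2 value of 1.72 in the first interval (adjusted p = 0.00106), and Wnt16 rose by 3.29 in the second interval (adjusted p = 0.000127) from levels of 0.38 to 0.79 CPM at E11.5. Of 10 Frizzled receptors, 2 rose and 4 fell over the whole span. Fzd10 rose by 2.17 (adjusted p = 9.16e-05) and Fzd5, a receptor used in the early eye, fell by a log2 value of -3.18 (adjusted p = 3.83e-05).

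**Figure D4:**
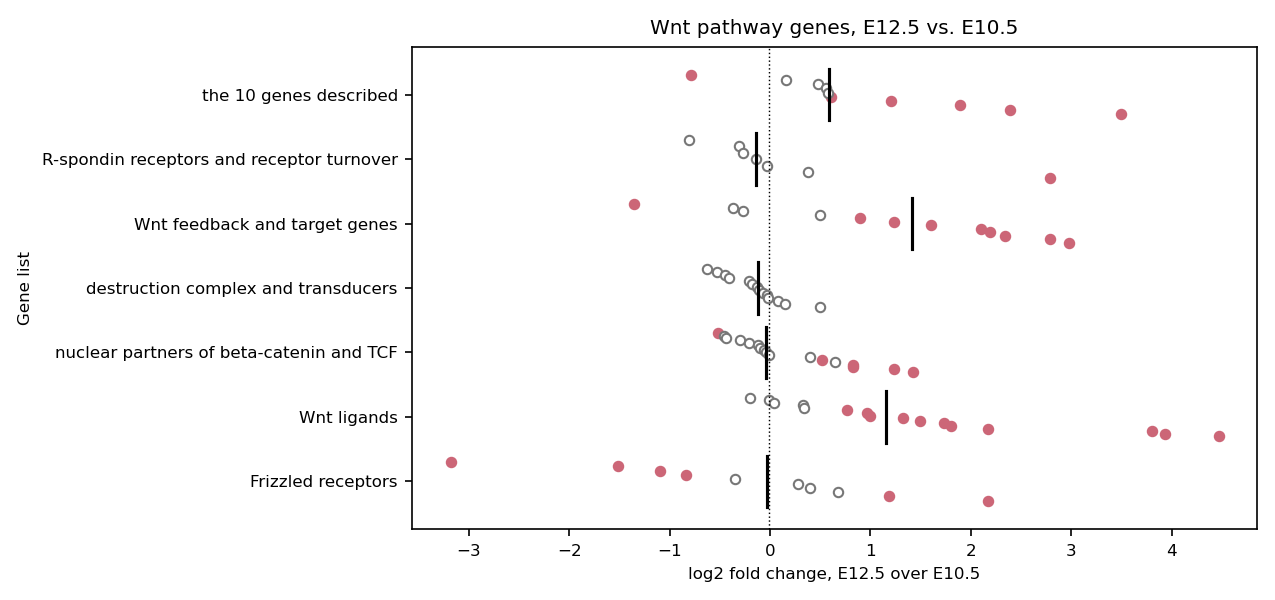
Log2 fold change of each tested gene over the whole span, E12.5 over E10.5 (horizontal axis), by gene list (vertical axis, with points spread within a list so that they can be seen). Filled red points have an adjusted p of at most 0.05 and the black bar is the median of the list. The 14 destruction complex and transducer genes show no filled point, and feedback and target genes and Wnt ligands have medians of 1.42 and 1.16.

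Markers of the tissues in the dissection moved as well. The summed level of 8 facial mesenchyme markers was 975 to 1683 CPM at E10.5, 2124 to 2212 a day later and 2208 to 2299.5 in the E12.5 libraries. In the first interval, in which 6 of the 10 genes rose, 4 of the 8 rose and none fell by edgeR. Among all genes tested, 6.19% rose and 5.58% fell there. DESeq2 called 5 of the 8 higher and 1 lower in that interval. By edgeR, 1 of the 8 rose and 1 fell in the second interval, and 4 rose and 1 fell over the whole span. The summed level of 10 epithelial markers was 489 to 907 CPM, 537 to 556 and 776 to 848, with 2 rising and 2 falling over that first interval and 2 rising in the second. All 10 markers of neuroepithelium and eye fell in the first interval, their sum going from 361 to 509.9 CPM down to 128 to 147, and 138 to 163 in the last stage. None of the markers in these 3 lists was at 0 in every library, and markers of both epithelium and mesenchyme were detected. Of the other marker lists, in the first interval, 1 of 7 neuronal markers rose and 2 fell, 2 of 9 red blood cell markers rose, 1 of 5 cartilage markers tested rose, and none of 8 endothelial and 2 skeletal muscle markers tested passed in edgeR, where DESeq2 called 1 muscle marker higher. The part of these shifts in the courses of the 10 genes was not tested.

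For each of the 10, the protein-coding genes with the most similar profile over the 9 libraries were found as those with the smallest root mean square (RMS) difference in centred log2 CPM among 14125 genes. Nearest to Lef1 was Tmem100, with an RMS difference of 0.09 against an RMS of 1.02 for Lef1 around its own mean, followed by Plk2 at 0.18. Nearest to Tcf7 were Slc20a1 (0.10) and Plcl2 (0.10), to Tcf7l1 Ece1 (0.06) and Disp1 (0.08), and to Tcf7l2 Decr2 (0.08) and Fam3c (0.08). These 3 genes varied less themselves, with an RMS around their own means of 0.34, 0.22 and 0.23, so a small difference says less there. For the genes that follow, that RMS was between 0.39 (Axin2) and 1.48 (Rspo3). Fam131b (0.09) and Anpep (0.10) lay nearest to Axin2, and Anpep (0.12) was also second for Lgr5, after Frmd6 (0.11). S1pr3 (0.13) and Clcf1 (0.14) lay nearest to Nkd1. For the R-spondins these were Csf2ra (0.15) and Begain (0.17) for Rspo1, Adgre5 (0.18) and Sdk1 (0.19) for Rspo2, and Pcdhb5 (0.20) for Rspo3. The mean level of Pcdhb5 was only 0.32 CPM at E10.5. None of the 10 was among the nearest 2 of another.

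Start-site windows were searched for the core letters that TCF/LEF factors bind, CTTTGA and CTTTGT, on both strands. RefSeq start-site windows of 300 bases (GRCm38.p6) were at hand for 7 of the 10 genes, 12 windows in all, and 3 of them held either motif, beside 31.2% of 32851 windows of the same length over all genes (16.0% for CTTTGA and 18.7% for CTTTGT). The windows at the upstream starts of Lef1 held none. Nor did the window at chr3:131112541-131112840, which lies inside the gene. The window at another internal start of Lef1 (plus strand, inside the gene, 250 bases before to 50 after the start) held 3 matches. It is shown with these in capitals, CTTTGA read on the opposite strand appearing as TCAAAG and CTTTGT as ACAAAG.
Lef1, chr3:131156044-131156343: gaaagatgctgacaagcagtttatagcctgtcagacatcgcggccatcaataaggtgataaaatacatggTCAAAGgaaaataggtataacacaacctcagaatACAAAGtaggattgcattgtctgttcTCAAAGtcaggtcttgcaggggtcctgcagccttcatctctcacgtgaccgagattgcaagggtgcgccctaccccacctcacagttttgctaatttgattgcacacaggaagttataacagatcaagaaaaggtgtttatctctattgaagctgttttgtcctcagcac
A match is a description of the letters only. The counts do not separate transcripts from this start from those of the other starts.

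In GENCODE vM21, exons of 4 of the 10 genes overlap an antisense gene, and strand-aware counting was not stated. For Lef1 the overlap with Gm43352 covered 13.7% of its exon bases, and Gm43352 had 2 to 25 counts in a library. For Rspo3 the overlap with Gm48159 covered 13.1%, and that gene had 0 counts in every library. The overlaps of Tcf7l1 with Gm15401 (4.56%) and of Axin2 with Gm11670 (3.8%) involved antisense genes with at most 7 counts.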

How the data were processed

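Total RNA of 9 lambdoidal junction pools, 3 per stage, had been prepared with a TruSeq kit, mapped to GRCm38/mm10 with HISAT2 (2.0.5) and counted per gene with featureCounts by the authors. The deposited table holds raw counts per gene and FPKM that the authors computed from counts and gene length, which were used here. Its further columns hold group means, fold changes and p-values of the authors' own comparisons and were not used. Stages were taken from the labels, and the replicate numbers, which follow the order of deposit, are those in the library titles.

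Genes were kept by filterByExpr in edgeR (4.0.16), scaled by TMM, and tested by the quasi-likelihood test on the 6 libraries of each pair with Benjamini-Hochberg adjustment. DEGs needed an adjusted p no higher than 0.05 and a log2 fold change of 1 or more in size, the cutoffs of the study. The step difference and the test over 3 stages used all 9 libraries. Levels are CPM on TMM-scaled sizes. No pair of replicates agreed within counting noise (chi-square test), so none was treated as a copy of another. Depth was 16581009 to 20836804 counts per library. On simulated counts, genes changed 2-fold were recovered to 69.0% in the first interval, 86.0% in the second and 50.5% over the whole span. The simulation gave every gene the same dispersion and held no outlying library. These rates are therefore a check of the fits and not the power in the real libraries. The 10 genes and the lists of Wnt and marker genes were chosen with earlier results of these data known. All 10 genes were named. The second nearest profile to Rspo3 is not reported here. Of each Wnt list, the rule allowed the 2 genes of smallest p per direction among those that passed in a comparison, and Lgr4 and Ctnnb1 were added after their values were seen. Alternatives were other normalizations (DESeq2 size factors, upper quartile), DESeq2 (1.42.0), other count filters, a fit on all 9 libraries, a replicate block, removal of a GC trend, other fold thresholds and each library left out.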

Additional observations from a re-analysis of the deposited data

Results flagged for a closer look

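The change in Rspo2 differed between the 2 intervals. Its log2 fold change from E11.5 to E12.5 minus that from E10.5 to E11.5 was -2.04 (SE 0.39, edgeR adjusted p = 0.0303, all 9 libraries). The mean level was 27.2 CPM in the E10.5 libraries (SD 9.22), 83.8 CPM in those of E11.5 (SD 13.0) and 62.6 CPM in those of E12.5 (SD 10.4), with n = 3 each. The difference kept its sign in all 9 fits with a library left out, from -2.23 to -1.78, and passed in 4 of them. Because E11.5 enters both steps with opposite sign, a high or low E11.5 mean moves both steps at once.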

How the results depend on the processing

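Of 620 values of single genes under alternatives, 534 kept direction and side of the threshold, 41 no longer passed, 35 newly passed and 10 changed sign. All sign changes were in genes that had not passed. With a library left out, Tcf7l1 ran from -0.066 (no E10.5 replicate 3; -0.0037 with no E10.5 replicate 1) to 0.13 in the first interval, from -0.021 (no E12.5 replicate 1) to 0.32 in the second, from -0.0013 (no E12.5 replicate 1) to 0.35 over the whole span, and from -0.028 (no E12.5 replicate 1) to 0.32 in the step difference. Tcf7l2 ran from -0.014 (no E10.5 replicate 1) to 0.088 in the first interval. With the GC trend removed, and with that and the replicate block, Tcf7l1 was -0.040 and -0.067 in the second interval, and -0.081 and -0.088 in the step difference.

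In the first interval, DEGs among the 10 genes fell from 4 to 2, and among other Wnt genes from 15 to 5, when edgeR's glmTreat tested against the fold threshold. Other Wnt genes that rose went from 14 to 24 with the GC trend removed and the replicate block. In the second interval, 3 of the 10 rose with DESeq2 size factors and 1 in the fit on all 9 libraries, against 5, and 3 fell among all genes with at least 1 count, against 1. DEGs among the 10 numbered 6 with no fold threshold and 0 with glmTreat, against 1, while 6 of the 10 had an adjusted p of at most 0.05. For other Wnt genes there, DEGs numbered 15 and 2 under those settings, against 8. DESeq2 gave 7 that fell, against 4, and all genes with at least 1 count gave 18 that rose and 11 that fell, against 11 and 4. Over the whole span, 13 other Wnt genes fell with GC trend removed and replicate block, against 6, and 12 were DEGs by glmTreat, against 24. A step difference passed in 5 of the 10 genes with DESeq2, 5 with all genes of at least 1 count, 2 with the replicate block, 2 with the GC trend removed and 4 with both, against 1. The share of all genes that passed is not given for these alternatives or for the fits with a library left out. These counts therefore do not tell a change in the listed genes from a change over all genes. The causes were not tested.

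With each library left out, DEGs among the 10 numbered 3 to 5, 0 to 2 and 3 to 4 in the first interval, the second and the whole span. Those that rose numbered 5 to 6, 1 to 5 and 4 to 5, and those that fell 0 to 2, 0 to 4 and 1 to 1. For other Wnt genes the DEGs were 8 to 17, 7 to 10 and 21 to 26, those that rose 7 to 30, 8 to 17 and 20 to 27, and those that fell 2 to 10, 2 to 20 and 4 to 10. Step differences passed in 0 to 6 genes and 3-stage differences in 7 to 9.

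Counted without length, the share of Lef1 among the 4 effectors was 22.2%, 49.4% and 58.1% by stage, and that of Rspo3 among the R-spondins 18.2% at E11.5 and 34.5% at E12.5. On the longest coding transcripts, chosen after seeing the data, these were 19.8%, 46.2% and 55.6% for Lef1 and 18.2% and 32.6% for Rspo3. Replicate numbers did not pair the libraries consistently. Correlations of deviations between same-numbered libraries ran from -0.15 to 0.22, where 0.1 had been set as the correlation for pairing. Over the whole span replicates 1 and 3 lay above that value (0.18 and 0.22) and replicate 2 below it (0.07). With the replicate block 6 of the 10 genes rose and 0 fell in the first interval, 4 rose and 1 fell in the second, and 5 rose and 1 fell over the whole span. The share of all genes that passed with the replicate block is not given, so these counts have no background beside them. The lowest count of the 10 genes was 48. In simulated data with 3 libraries a stage, changes of 2-fold were recovered to between 50.5% and 86.0%, depending on the comparison. Those data had the same dispersion for every gene and no outlying library, unlike the real ones.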
